A study of Mus musculus with 4 samples.

Results

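The antagonists, a coreceptor and the transducers of the Wnt pathway, 6 of the 84 genes on a mouse PCR array for adipogenesis, were followed across 4 liver samples. They were taken by gene symbol for their role in the pathway: the secreted antagonists Dkk1, Sfrp1 and Sfrp5, the coreceptor Lrp5, and the intracellular transducers Axin1 and Tcf7l2. The livers came from male C57BL/6J mice, 2 months old at the start, which ate either a normal calorie diet (ND, 10% of kcal from fat) or a high fat diet (HFD, 60% of kcal from fat) for 5 weeks. On each diet, 3 of 6 mice also received the mol-miR pool, small RNAs extracted from Moringa oleifera seeds, by gavage every 2 days. The groups were thus ND, ND with the mol-miR pool (ND + pool), HFD, and HFD with the mol-miR pool (HFD + pool). The array was run on 1 liver sample per group with 1 well per gene, and the sources used here do not give whether a sample came from 1 mouse or several. No difference below therefore has an error or a p-value. Groups are named after the column headings of the Ct table alone, which nothing on the plates checks. For HFD vs. ND, HFD + pool vs. ND and HFD + pool vs. HFD, the study describes directions that are mostly the reverse of those these headings give. Which is right was not settled from the files, so every direction in these comparisons, and in ND + pool vs. ND, holds only for the columns as headed. HFD + pool vs. ND + pool uses neither the ND nor the HFD column and would be the same if those headings were exchanged. Its direction rests in turn on the headings of the pool columns, for which no exchange was tried.

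In the Wnt pathway, secreted Wnt ligands bind Frizzled receptors together with the coreceptors Lrp5 or Lrp6, and beta-catenin, which is otherwise broken down, then accumulates and drives transcription with TCF factors. In the liver this signal sets the gene programme of hepatocytes around the central vein, and in preadipocytes it holds back differentiation into fat cells. Antagonists act outside the cell, some on the ligand and some on the coreceptor.

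The array reports a threshold cycle (Ct), at which the amplified product becomes detectable, so a later Ct means less template and 1 cycle stands for a factor of 2. Levels are given as the Ct minus the mean Ct of 5 reference genes (delta Ct), namely Actb, Gapdh, Gusb, Hprt and Hsp90ab1, and a fold change above 1.5 is counted as upregulated and one below 0.5 as downregulated, the limits of the study's methods. The mean Ct of the references stayed between 21.6 and 22.2. The genomic DNA control well (MGDC), an assay aimed at an untranscribed stretch of DNA, had a Ct of 26.8 in ND, 28.8 in ND + pool, 34.7 in HFD and 33.4 in HFD + pool, so it moved by 7.88 cycles between ND and HFD. The positive PCR control wells also differed between plates: of 3 wells, 2 had a Ct in ND (16.9 and 17.9), 3 in ND + pool (18.3 to 18.4), 1 in HFD (21.2) and 1 in HFD + pool (22.0). The reverse transcription control wells gave a Ct in ND + pool alone, in 2 of 3 wells. The part of these plate differences in the results below was not tested.

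Dkk1, which blocks the coreceptors Lrp5 and Lrp6, had a Ct in all 4 livers: 26.8 in ND, 28.7 in ND + pool, 33.8 in HFD and 31.4 in HFD + pool. Its delta Ct was 5.20, 6.52, 11.9 and 9.18 cycles in the same order. By delta Ct, the signal of the Dkk1 well was thus highest in the ND liver and lowest in the HFD liver, with both pool livers between. In HFD vs. ND its log2 fold change came to -6.68, and 3 of the 84 array genes had a lower value. Between the livers of pool-treated mice, HFD + pool vs. ND + pool, it was -2.67, and 1 array gene had a lower value. Dkk1 was also the member closest to the genomic DNA control in ND, HFD and HFD + pool. Its Ct came 0.039 cycles after that well in ND, and 0.15, 0.84 and 1.97 cycles before it in ND + pool, HFD and HFD + pool.

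Dkk1 is known as a gene that beta-catenin and TCF factors switch on, so its promoter is shown here beside that of Sfrp5, the member with the profile most like it. The sequences are the 250 bases before the transcription start from RefSeq on GRCm38.p6, on the minus strand of chr19:30549497-30549746 for Dkk1 and of chr19:42202253-42202502 for Sfrp5. Capitals mark matches to a TCF motif written as CTTTGNN, where each N is A or T, searched on both strands.
Dkk1: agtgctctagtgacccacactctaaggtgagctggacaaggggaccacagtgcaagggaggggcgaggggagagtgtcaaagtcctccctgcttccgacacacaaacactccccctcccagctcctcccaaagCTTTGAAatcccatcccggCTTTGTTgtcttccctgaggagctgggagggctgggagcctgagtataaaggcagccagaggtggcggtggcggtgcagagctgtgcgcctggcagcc
Sfrp5: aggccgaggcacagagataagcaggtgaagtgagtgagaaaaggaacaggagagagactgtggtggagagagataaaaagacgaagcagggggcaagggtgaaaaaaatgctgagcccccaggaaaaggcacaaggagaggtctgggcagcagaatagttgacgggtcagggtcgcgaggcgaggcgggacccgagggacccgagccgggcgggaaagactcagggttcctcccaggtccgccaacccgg
The Dkk1 window held 2 matches that do not overlap, whose first bases lie 117 and 98 bases before the start, and the Sfrp5 window held 0. Of 32851 promoter windows of this length, 14.8% held at least 1 match and 1.43% at least 2. Of the 83 windows found for array genes, 6 held a match. Windows were found for 3 of the 6 members, and of the 2 windows of Tcf7l2, 1 held a match. A match of letters is a description of the sequence and shows no binding.

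Sfrp1, a secreted Frizzled-related protein that binds Wnt ligands, had a Ct of 26.2 in ND, 28.3 in ND + pool, 31.97 in HFD and 30.1 in HFD + pool. Its order over the 4 livers was the same as that of Dkk1. In HFD vs. ND Sfrp1 had a log2 fold change of -5.48, and in HFD + pool vs. HFD one of 2.13, which become 5.48 and -3.35 if the ND and HFD headings are exchanged. The study lists Sfrp1 as increased in HFD vs. ND and in HFD + pool vs. ND. In the latter, the columns as headed gave -3.35 for Sfrp1. Sfrp5, its relative with the same kind of ligand-binding domain, had a Ct of 26.3, 28.5, 33.0 and 30.9 in ND, ND + pool, HFD and HFD + pool. Sfrp5 had a log2 fold change of -6.35 between HFD and ND and of 2.36 in HFD + pool vs. HFD. The 3 antagonists were alike in shape: after centring each gene's delta Ct on its own mean, the root mean square difference over the 4 livers was 0.23 cycles between Dkk1 and Sfrp5, 0.38 between Sfrp1 and Sfrp5 and 0.58 between Dkk1 and Sfrp1. All 3 were downregulated in ND + pool vs. ND, beside 48.8% of the array genes. The log2 fold change was -1.31 for Dkk1 and -1.62 for both Sfrp1 and Sfrp5. With Gapdh alone as the reference, Dkk1 (-0.58), Sfrp1 (-0.88) and Sfrp5 (-0.88) were within the limits. With the median Ct of the array genes they were so too, at -0.38, -0.68 and -0.68.

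Lrp5, the coreceptor on which Dkk1 acts, had a Ct of 26.3 in ND, 28.8 in ND + pool and 29.1 in HFD + pool, and no Ct in HFD. With the missing value set to 35, Lrp5 had a log2 fold change of -8.39 between HFD and ND and of 6.16 in HFD + pool vs. HFD, and with later and missing values set to 32 these were -5.39 and 3.16. The HFD value thus rests on the limit chosen, and the size of both differences with it. Among the other 3 livers, the delta Ct of Lrp5 was 4.67 cycles in ND, 6.61 in ND + pool and 6.91 in HFD + pool. With the pool given, Lrp5 was the one member that stayed within the limits between the diets, with a log2 fold change of -0.30 in HFD + pool vs. ND + pool, whose sign turned with Gapdh alone (0.52) or the median Ct of the array genes (0.20) as the reference. In ND + pool the Ct of Lrp5 lay 0.059 cycles before that of the genomic DNA control.

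Axin1, the scaffold on which beta-catenin is marked for breakdown, had a Ct of 25.7 in ND, 27.5 in ND + pool, 29.6 in HFD and 29.8 in HFD + pool. Both HFD livers were later than both ND livers. Relative to ND, HFD gave a log2 fold change of -3.56, which came within the limits (-0.87) with the median Ct of the array genes as the reference, and the other 2 comparisons across diets gave -2.20 in HFD + pool vs. ND + pool and -3.45 in HFD + pool vs. ND. Between the HFD livers Axin1 was within the limits, at 0.11 in HFD + pool vs. HFD, and the sign turned with 5 of the 7 other references, over which the value ranged from -1.15 to 1.12. There 6 array genes had a lower value, against a median of 1.46 over the 84 genes. If the ND and HFD headings are exchanged, the value of Axin1 in HFD + pool vs. HFD becomes -3.45, below the limit.

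Tcf7l2, the transcription factor through which beta-catenin acts in the nucleus, is the last step of the pathway among the members. Its Ct was 22.8 in ND, 23.7 in ND + pool, 23.5 in HFD and 23.0 in HFD + pool, a span under 1 cycle. The delta Ct ran from 0.74 cycles in HFD + pool to 1.56 in HFD. Relative to ND, the log2 fold change of Tcf7l2 was -0.39 in HFD, and it was -0.38 in ND + pool vs. ND, both within the limits. In ND + pool vs. ND it turned positive with Gapdh alone (0.36) or the median Ct of the array genes (0.56), and in HFD vs. ND with Hprt alone (0.36), Gapdh alone (0.16) or the median Ct of the array genes (2.30). Tcf7l2 was upregulated in HFD + pool vs. ND + pool (0.81) and in HFD + pool vs. HFD (0.82). The first was within the limits with Gusb (0.32) or Hsp90ab1 (0.13) alone, and the second with Gusb (0.44), Hprt (0.016) or Hsp90ab1 (0.046) alone, turning to -0.43 with the median Ct of the array genes as the reference. Its Ct was 3.99 cycles before the genomic DNA control in ND and 11.2 cycles before it in HFD, the widest distance among the members in every liver.

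**Figure D1:**
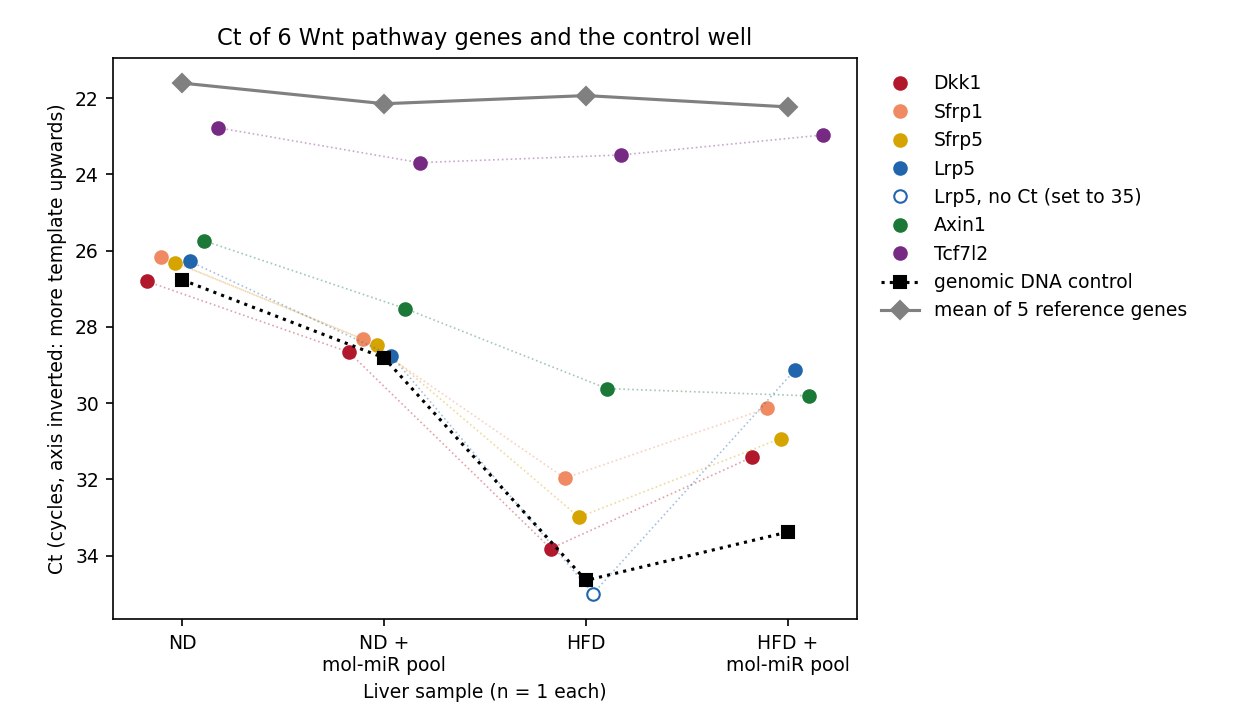
Ct of the 6 genes, the genomic DNA control and the mean of the 5 reference genes in each of the 4 liver samples (y axis in cycles, inverted; dotted lines join the points of a gene; the open circle is Lrp5 without a Ct, drawn at 35). Tcf7l2 and the references stay level, while the other 5 genes lie near the control in both ND livers and later in both HFD livers.

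The position of each member against the genomic DNA control was then read within each plate, a comparison that needs no reference genes. In ND, 4 of the 6 members had a Ct within 1 cycle of the control, beside 31% of the array genes. These were Dkk1, Sfrp1, Sfrp5 and Lrp5, and the same 4 did so in ND + pool, beside 23.8% of the array genes. In HFD this held for Dkk1 alone of the 5 members with a Ct, beside 3.61% of the genes with a Ct, and in HFD + pool for 0 of 6 members and 0 array genes. Put as a share of the member's own signal, the control well amounted to 103% for Dkk1, 73.1% for Sfrp5, 71.2% for Lrp5, 65.6% for Sfrp1, 48.9% for Axin1 and 6.28% for Tcf7l2 in ND. In HFD + pool the same shares were 25.5% for Dkk1, 18.3% for Sfrp5, 5.28% for Lrp5, 10.6% for Sfrp1, 8.41% for Axin1 and 0.073% for Tcf7l2. The share was thus largest for the antagonists and Lrp5 in both ND livers and smallest for Tcf7l2 in every liver. How well each assay amplifies genomic DNA was not measured, so these shares compare signals and do not measure how much of a signal came from DNA.

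**Figure D2:**
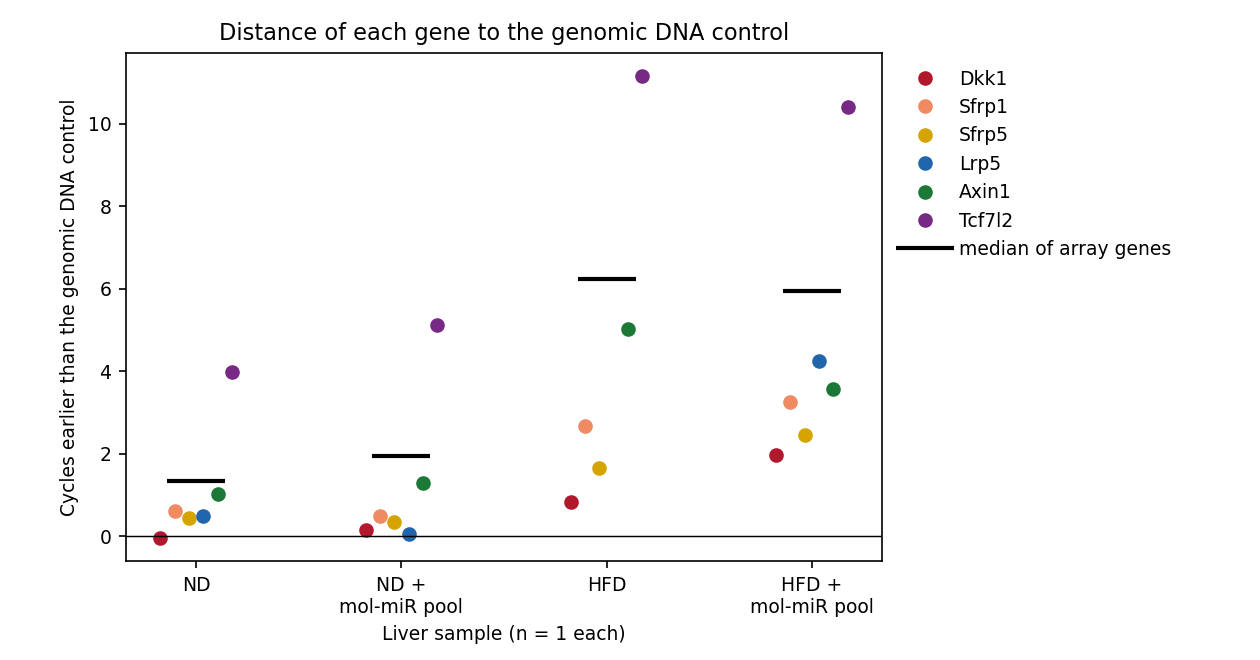
Cycles by which each gene's Ct came before that of the genomic DNA control on the same plate (y axis) in the 4 liver samples; black bars are the median of the array genes, and Lrp5 has no point in HFD. In both ND livers Dkk1, Sfrp1, Sfrp5 and Lrp5 sit within 1 cycle of the control, and Tcf7l2 is farthest from it in every sample.

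The first comparison, HFD vs. ND, asks how the livers differed by diet in mice without the pool. Of the 6 members, 5 were downregulated (Dkk1, Sfrp1, Sfrp5, Lrp5 and Axin1), where 72.6% of the 84 array genes were, and 0 were upregulated, where 3.57% of the array were. The median log2 fold change of the members was -5.91, and that of the array -2.53. The members' values ran from -8.39 for Lrp5 to -0.39 for Tcf7l2. The array median itself depended on the reference, from -3.50 with Actb alone to 0.16 with the median Ct of the array genes, and the member median moved with it from -6.88 to -3.23. Exchanging the headings of ND and HFD turns every sign here, so the same 5 members were then upregulated and 0 downregulated. The signal of the genomic DNA control differed by more cycles between these samples than that of Dkk1, whose Ct differed by 7.005 cycles. When that control's signal was subtracted from each member's, Dkk1 and Lrp5 had no value, and Sfrp5 (-5.00), Sfrp1 (-4.19) and Axin1 (-2.63) were still below the limit.

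In HFD + pool vs. ND + pool, the diet comparison among treated mice, 4 of the 6 members were downregulated, beside 34.5% of the array genes. Tcf7l2 was the 1 member upregulated, beside 23.8% of the array. The member median was -1.97 and the array median -0.22. Dkk1 (-2.67), Sfrp5 (-2.37), Axin1 (-2.20) and Sfrp1 (-1.74) were the 4 downregulated. After subtraction of the genomic DNA control's signal, Axin1 (-1.57) was the only one of these 4 below the limit, Sfrp5 (-0.40) and Sfrp1 (-0.11) lay within the limits, Dkk1 turned to 0.24, and Lrp5 to 4.26.

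The effect of the pool was compared on each diet. In ND + pool vs. ND, 5 of the 6 members were downregulated, beside 48.8% of the array genes, and 0 were upregulated, beside 4.76% of the array. The values lay between -1.94 for Lrp5, below which 2 array genes fell, and -0.38 for Tcf7l2, and the medians were -1.47 for the members and -0.99 for the array. With Gapdh alone or the median Ct of the array genes as the reference, 1 of the 6 members was downregulated. The Ct of the genomic DNA control differed by 2.045 cycles between these livers. That of the 5 downregulated members differed by 1.784 cycles for Axin1 up to 2.477 for Lrp5. When the control's signal was subtracted, Dkk1 had no value. Lrp5 (-4.78), Sfrp5 (-1.99), Sfrp1 (-1.86) and Axin1 (-1.03) were then below the limit. In HFD + pool vs. HFD the direction was the opposite: 5 members were upregulated, beside 84.5% of the array genes, and 0 were downregulated, beside 1.19% of the array. Dkk1 (2.70), Sfrp5 (2.36), Sfrp1 (2.13) and Tcf7l2 (0.82) were measured in both livers, and Lrp5 (6.16) rests on the value set for its missing Ct. With missing values and those above 32 set to 32, Dkk1 was at 0.88 and Sfrp5 at 1.37, since their Ct in HFD was later than that limit. The member median was 2.24 and the array median 1.46.

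In HFD + pool vs. ND, which sets the treated mice on the fatty diet against the untreated mice on the normal one, 5 of the 6 members were downregulated, beside 53.6% of the array genes, and 0 were upregulated, beside 14.3% of the array. Sfrp5 (-3.99), Dkk1 (-3.98), Axin1 (-3.45), Sfrp1 (-3.35) and Lrp5 (-2.24) were below the limit, while Tcf7l2 was at 0.43. The member median was -3.40 and the array median -1.24. With the control's signal subtracted, Axin1 (-2.61), Sfrp5 (-2.39) and Sfrp1 (-1.98) were below the limit and Lrp5 (-0.52) was not. These comparisons share samples, since each of the 4 livers enters more than 1 of them, and their values are not independent of each other.

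**Figure D3:**
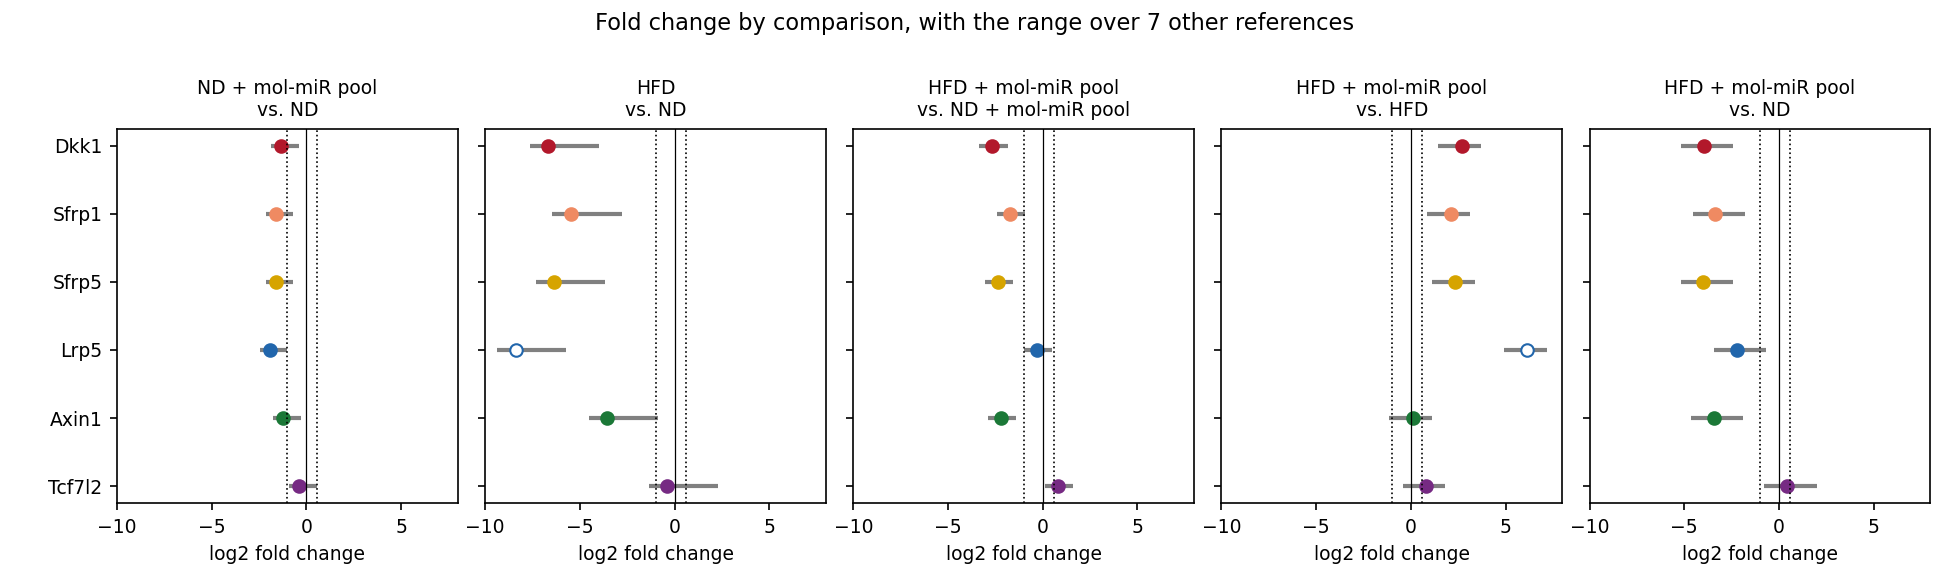
Log2 fold change (x axis) of each gene in 5 comparisons; the point uses the mean of the 5 reference genes, the grey bar spans 7 other references, dotted lines mark fold changes of 0.5 and 1.5, and open circles rest on the missing Ct of Lrp5 set to 35. Dkk1, Sfrp1 and Sfrp5 keep their side of 0 over all references in every panel, whereas the bar of Tcf7l2 crosses 0 in 4 of the 5 panels, that of Axin1 in the fourth and that of Lrp5 in the third.

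The array also holds the ligands Wnt1, Wnt3a, Wnt5a, Wnt5b and Wnt10b. In HFD vs. ND 5 of the 5 were downregulated, with a median log2 fold change of -5.60, beside 72.6% of the array genes. The study lists Wnt3a and Wnt10b as increased in that comparison. In HFD + pool vs. HFD 5 of the 5 were upregulated, beside 84.5% of the array genes, with values between 1.85 for Wnt5a and 2.85 for Wnt1. Wnt5b, a ligand that signals mostly without beta-catenin, was the 1 ligand upregulated in HFD + pool vs. ND + pool (0.95), beside 23.8% of the array genes. Over the other references this value ranged from 0.27, within the limits, to 1.77. Wnt1, Wnt3a and Wnt10b were downregulated there, beside 34.5% of the array genes, and Wnt5a (-0.85) was within the limits. The value of Wnt5b in HFD vs. ND (-1.72) turned to 0.97 with the median Ct of the array genes as the reference. In ND the control well amounted to 57.5% of the signal of Wnt1 and 28.03% of that of Wnt5b, the lowest share among the ligands.

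Of the 3 genes that beta-catenin is known to induce, Ccnd1, the gene of cyclin D1, had a log2 fold change of 0.01 in HFD vs. ND. Its sign depended on the reference, from -0.96 to 2.69. Jun, a subunit of the AP-1 transcription factor, was at -2.48 and Ppard, a fatty acid-sensing nuclear receptor, at -2.12 in the same comparison, both positive with the median Ct of the array genes as the reference (0.21 and 0.57). In HFD + pool vs. HFD, Jun (2.81) and Ppard (0.66) were upregulated and Ccnd1 was at -0.27, though Ppard turned to -0.59 with that same reference and Ccnd1 ranged up to 0.74 over the references. In HFD vs. ND, 2 of these 3 genes were thus downregulated, beside 72.6% of the array genes.

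**Figure D4:**
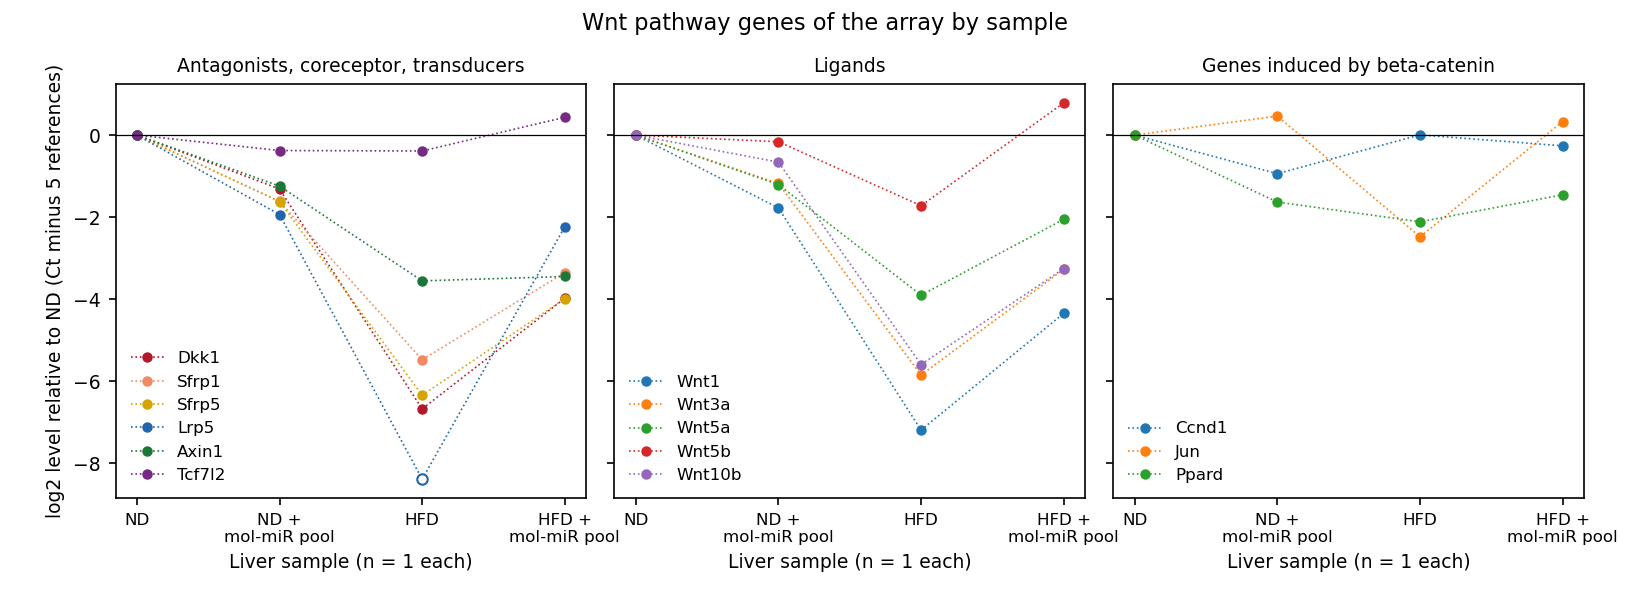
Log2 level relative to ND (y axis; the negative difference in delta Ct) of the 6 genes, the 5 Wnt ligands and 3 genes induced by beta-catenin in the 4 liver samples (x axis); dotted lines join the points of a gene and the open circle is Lrp5 with its missing Ct set to 35. Antagonists and ligands are lowest in HFD, with Tcf7l2 and Ccnd1 nearly level there.

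For each member, the 2 other array genes with the smallest root mean square difference of the centred delta Ct over the 4 livers were sought. For Dkk1 they were Wnt1 (0.20 cycles) and Lep (0.22), for Sfrp1 Adig (0.12) and Bmp2 (0.16), and for Sfrp5 Fgf10 (0.13) and Ucp1 (0.15). The median distance from Dkk1 to the array genes outside the members was 1.86 cycles. Tcf7l2 was most like Tsc22d3 (0.047) and Hes1 (0.075), both close to level. Lrp5, with its missing Ct set to 35, had no neighbour as near, the closest being Dlk1 (0.89) and Foxc2 (1.15), and Axin1 was nearest to Klf4 (0.36) and Rb1 (0.38). With 4 samples such likeness is a description of these values.

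Markers of hepatocytes and of fat cells on the array were also read. Having a Ct does not check the tissue label, since nearly every array gene had one in each liver. All 5 hepatocyte genes (Agt, Nr0b2, Nr1h3, Cebpa and Ppara) had a Ct between 20.7 and 26.7 in the 4 livers, and 2 of the 5 were downregulated in HFD vs. ND. Of the adipocyte genes (Adipoq, Adig, Lep, Retn, Cfd and Fabp4), 6 of 6 had a Ct in every liver, as did at least 83 of the 84 array genes. In HFD vs. ND, 6 of 6 were downregulated, beside 72.6% of the array genes. The Ct of the adipocyte genes ran from 22.9 to 26.3 in ND and from 22.5 to 28.8 in ND + pool. The genomic DNA control was at 26.8 and 28.8 there. In HFD they ran from 25.0 to 32.9, with the control at 34.7. In ND + pool vs. ND, 4 of the 6 were downregulated and 1 was upregulated, beside 48.8% and 4.76% of the array genes. The same counts were found in HFD + pool vs. ND, beside 53.6% and 14.3% of the array genes. In HFD + pool vs. HFD, where 84.5% of the array genes were upregulated, so were 6 of the 6 adipocyte genes. Their summed level, as log2 relative to the references, was -0.41 in ND, 0.13 in ND + pool, -2.95 in HFD and 0.66 in HFD + pool. This sum was led by Cfd, whose delta Ct was 3.06, 0.39, 7.04 and -0.42 cycles in that order, while the median delta Ct of the 6 genes was 3.86, 5.27, 9.59 and 7.51 cycles. Adipoq, Lep and Retn, hormones that fat cells secrete, had a Ct from 25.5 to 26.3 in ND and from 31.96 to 32.9 in HFD. The part of fat cells in the results for the members was not tested, and in bulk tissue fewer cells of a type and less RNA per cell cannot be told apart.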

How the data were processed

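RNA of mouse livers was reverse transcribed and run with SYBR Green on a PCR array of 96 wells. The authors deposited 1 score for every well, an instrument Ct that was not normalized, with missing values written as undetermined. The threshold setting, and any pooling of mice, is not given in the sources used here. A second deposited table holds the authors' own fold changes for 4 comparisons and was not used. Their direction in HFD vs. ND is the reverse of that of the Ct columns as headed, which the files do not settle, so the ND and HFD headings were also exchanged as an alternative added after the data were seen. Columns were assigned to groups by their names, low-fat diet standing for ND.

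Here a missing Ct was set to 35, delta Ct was taken against the mean Ct of the 5 reference genes, and fold changes assumed a factor of 2 per cycle. Named were all 6 members, the other Wnt pathway genes of the array, and the 2 array genes most like each member. The members, lists and limits were chosen with earlier results of these data known. With 1 sample per group no test was made. Alternatives were 7 other references, other limits, a left-out missing value and subtraction of the genomic DNA control signal, 2 to the power of minus its Ct, which takes every assay to amplify genomic DNA like that well. All 6 member symbols were found in RefSeq, and promoters came from its GRCm38.p6 table. The calculation was tested on simulated data. Python 3.11.15, numpy 2.4.6, pandas 2.3.3 and matplotlib 3.10.9 were used.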

Additional observations from a re-analysis of the deposited data

Results flagged for a closer look

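The pool was followed by opposite differences on the 2 diets in 4 of the 6 members, which were downregulated in ND + pool vs. ND and upregulated in HFD + pool vs. HFD. The second log2 fold change minus the first was 4.01 for Dkk1, 3.74 for Sfrp1, 3.98 for Sfrp5 and 8.09 for Lrp5, the last with its missing Ct in HFD set to 35. The same held for 36 of the 84 array genes (42.9%). With Gapdh alone or the median Ct of the array genes as the reference, Dkk1, Sfrp1 and Sfrp5 were within the limits in ND + pool vs. ND. All 4 members had a Ct within 1 cycle of the genomic DNA control in both ND livers. If the ND and HFD headings were exchanged, both differences would turn sign in these 4 members. With 1 sample per group, this difference between the diets was not tested.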

How the results depend on the processing

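Each count of members past a limit was calculated again under 11 alternatives on the columns as headed, and 49 of the 55 values lay within 1.5 times the reported count. In ND + pool vs. ND, 1 member was downregulated when Gapdh served as the only reference, 1 against the array's median Ct and 0 with the limits set to 2 and 0.25. With the genomic DNA control signal subtracted, 3 members were downregulated in HFD vs. ND, where 4 had a value, 1 in HFD + pool vs. ND + pool, and 3 in HFD + pool vs. ND. Of 293 single log2 fold changes under the alternatives, 252 kept direction and call and 20 came within the limits. Another 5 passed a limit only there in the same direction, and 14 that were within the limits turned sign. Of these 14, some also passed a limit. Against the array's median Ct these were Tcf7l2 in HFD vs. ND (2.30) and Axin1 in HFD + pool vs. HFD (-1.15). With the control signal subtracted it was Lrp5 in HFD + pool vs. ND + pool (4.26), which rests on a small remainder in ND + pool. The remaining 2 reversed. Dkk1 in HFD + pool vs. ND + pool turned to 0.24 with the control signal subtracted, which left a small remainder in ND + pool. Tcf7l2 in HFD + pool vs. HFD turned to -0.43 against the array's median Ct. The cause was not tested. With the ND and HFD headings exchanged, an alternative added after seeing the data, 0 members passed the stated limit in ND + pool vs. ND, HFD vs. ND, HFD + pool vs. HFD and HFD + pool vs. ND. HFD + pool vs. ND + pool uses neither column, so this exchange could not affect it. In ND + pool vs. ND the values then were 5.36 for Dkk1, 3.86 for Sfrp1, 4.73 for Sfrp5, 6.46 for Lrp5 and 2.31 for Axin1. In HFD vs. ND they were 6.68 for Dkk1, 5.48 for Sfrp1, 6.35 for Sfrp5, 8.39 for Lrp5 and 3.56 for Axin1. The values in HFD + pool vs. HFD were -3.98 for Dkk1, -3.35 for Sfrp1, -3.99 for Sfrp5, -2.24 for Lrp5 and -3.45 for Axin1. Those in HFD + pool vs. ND were 2.70 for Dkk1, 2.13 for Sfrp1, 2.36 for Sfrp5, 6.16 for Lrp5 and 0.11 for Axin1. No paired analysis was possible because each group has 1 sample, and without replicates no difference can be set against an error.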
